A study of Drosophila melanogaster with 9 samples.

Results

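The genes described are those of the epidermal growth factor receptor (EGFR) pathway of the Drosophila embryo. The list holds 10 genes, namely the receptor Egfr, the ligands spi and vn, the ligand-processing genes rho, ru and S, the inhibitors aos and sty, and the ETS factors pnt and aop. A probe set was taken when the platform annotation gave it a single gene symbol on this list, by current symbol or by gene ID. This found 7 probe sets for 6 genes, of 18769 probe sets and 11982 named genes in all. They are Egfr (1633948_a_at), spi (1627453_s_at), S (1638189_s_at), aos (1641578_at), sty (1635819_at and 1635677_a_at) and aop (1627394_s_at). The genes rho, ru, vn and pnt were not analysed here. The probe sets of spi, S and aop carry the suffix _s_at, which Affymetrix gives where probes may match more than 1 transcript family, so signal from another gene on them cannot be told apart here.

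Total RNA from whole dechorionated embryos at stages 10 to 13, labelled as spanning germ band retraction and dorsal closure, was hybridised to Affymetrix Drosophila Genome 2.0 arrays, with 3 arrays in each of 3 groups. The mutant embryos were homozygous for cbtEP(2)2237E1, an allele of cabut (cbt), the gene of a Krüppel-like zinc finger factor. Absence of the twi-eGFP marker of the CyO balancer was used to pick them from the stock. The control embryos were white 1118 (w1118) of the same stages, also passed through the embryo sorter, with no other allele or transgene named in their labels. In the overexpression embryos, labelled as homozygous, the epidermal driver 69B-Gal4 directs UAS-Cbt, so the transgene is driven in the epidermis while RNA came from the whole embryo. Each mutant or overexpression sample pooled about 1000 embryos, while no such figure is stated for w1118. No embryos with the driver alone were analysed here. The labels do not state whether replicates were collected separately, and p-values therefore cover the spread among these arrays only, part of which may be technical.

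EGFR signalling in the fly is set by how much active ligand a cell releases. Spitz (spi), a ligand of the TGF-alpha type, is made as a membrane-bound precursor, Star (S) carries it out of the endoplasmic reticulum, and Rhomboid proteases (rho, ru) cut it free. The receptor acts through Ras and MAP kinase, which inactivates the ETS repressor Yan (aop) and activates the ETS activator Pointed (pnt). Argos (aos) binds and sequesters Spitz outside the cell, Sprouty (sty) restrains receptor tyrosine kinase signalling inside it, and both are induced by the pathway. In the embryo the pathway patterns the ventral ectoderm and acts in the tracheal placodes, the midline and the survival of ectodermal cells.

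The arrays are described before the results that rest on them. Background was taken as the brightest of the Tag controls, probe sets without a fly target, and lay at a log2 level of 0.58 to 1.20. Of the embryonic tissue markers, 14 of 15 measured exceeded it on all 9 arrays, the exception being the hemocyte gene Hml, above it on 5 arrays. Of the genes chosen as low in embryos (Yp1, Yp2, SP, chp and Cpr64Aa), 0 exceeded it on all arrays, but Yp2 did on 8, chp on 5 and Cpr64Aa on 1. The w1118 group was split. Replicates 1 and 3 correlated at 0.987 with each other but at 0.890 and 0.894 with replicate 2. Replicate 2 correlated at 0.968 to 0.981 with the overexpression arrays and at 0.957 to 0.97 with the mutant arrays. Replicates 1 and 3 correlated at 0.842 to 0.886 with the overexpression arrays and at 0.922 to 0.955 with the mutant arrays. Poly-A spike-in controls averaged 1.91 and 2.42 on w1118 replicates 1 and 3 and 3.09 to 4.03 on the other arrays. The 3' minus 5' difference of the actin control was 3.16 to 3.49 on the mutant arrays and w1118 replicates 1 and 3, 4.75 on w1118 replicate 2 and 4.82 to 5.57 on the overexpression arrays. That of the eIF-4a control ran the other way, from 3.24 and 3.67 on w1118 replicates 1 and 3 and 2.86 to 2.92 in the mutant to 2.64 on w1118 replicate 2 and 2.53 to 2.84 on the overexpression arrays. The part of these differences in the results below was not tested. The cbt probe set stood at 6.73 ± 1.02 in w1118, 4.26 ± 0.42 in the mutant and 3.36 ± 0.33 in the overexpression arrays (SD, n = 3 each), the last against the label if the probe set also reads the UAS-Cbt transcript, which the sources used here do not settle. The log2 difference from w1118 was -2.46 in the mutant (SE 0.48, limma adjusted p = 0.190) and -3.37 in the last group (SE 0.48, limma adjusted p = 0.0436), called the overexpression label below.

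The ligand Spitz had the smallest range over the arrays among the members. The log2 level of spi was 8.75, 8.36 and 8.69 on w1118 replicates 1, 2 and 3. It was 8.30, 9.08 and 8.71 on the mutant replicates and 8.35, 8.35 and 8.28 on those of the overexpression label. The whole range over 9 arrays was 0.80, less than for most probe sets above background, of which 12.9% had a smaller range. Above background here means a mean level over the 9 arrays above the mean background, which 10194 probe sets had. The arrays of the overexpression label lay below all w1118 arrays, although the closest pair nearly touched, and the mutant arrays overlapped with both groups.

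Star, which carries Spitz towards cleavage, varied far more. Its log2 level was 5.97, 4.14 and 6.54 on w1118 replicates 1, 2 and 3. On the mutant replicates it was 3.29, 5.08 and 4.61, and on those of the overexpression label 1.88, 2.56 and 3.43. All arrays of the overexpression label lay below all w1118 arrays, whereas the mutant arrays overlapped with both groups. The range over the 9 arrays was 4.66, and 98.4% of probe sets above background had a smaller one.

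The receptor gene Egfr had log2 levels of 4.32, 3.47 and 4.77 on w1118 replicates 1, 2 and 3. On the mutant replicates it stood at 2.99, 4.48 and 4.15, the first below the control range and the others inside it. On those of the overexpression label it stood at 1.31, 2.69 and 1.74, below every array of both other groups. The lowest of these, 1.31, was close to that array's background of 1.20. In RNA from whole embryos, fewer cells that express a gene and less RNA per cell cannot be told apart.

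Of the feedback inhibitors, aos followed Egfr. Its log2 level was 5.17, 3.98 and 5.17 on w1118 replicates 1, 2 and 3, and 4.09, 4.96 and 4.57 on the mutant replicates. On those of the overexpression label it was 3.16, 3.85 and 3.74, again below every other array. Sprouty did not show this order. On 1635819_at, sty was at 7.63, 7.10 and 7.51 in w1118, at 6.82, 7.16 and 7.01 in the mutant, and at 7.51, 7.15 and 7.30 in the overexpression label. On 1635677_a_at the levels were 5.97, 4.70 and 5.52 in w1118, 4.28, 5.16 and 4.46 in the mutant, and 5.40, 4.82 and 5.20 in the overexpression label. On both probe sets the mutant mean was the lowest of the 3 groups and the groups overlapped.

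The ETS repressor gene aop had the widest spread of all members, 5.31 log2 units over the 9 arrays. It was at 7.95 and 8.31 on w1118 replicates 1 and 3 but at 4.35 on replicate 2. The mutant replicates lay at 4.47, 5.44 and 6.01 and those of the overexpression label at 3.63, 3.89 and 3.0. All mutant arrays stood between w1118 replicate 2 and the other w1118 arrays, and all arrays of the overexpression label stood below the rest. The probe set values are shown array by array in the plot of member levels.

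**Figure D1:**
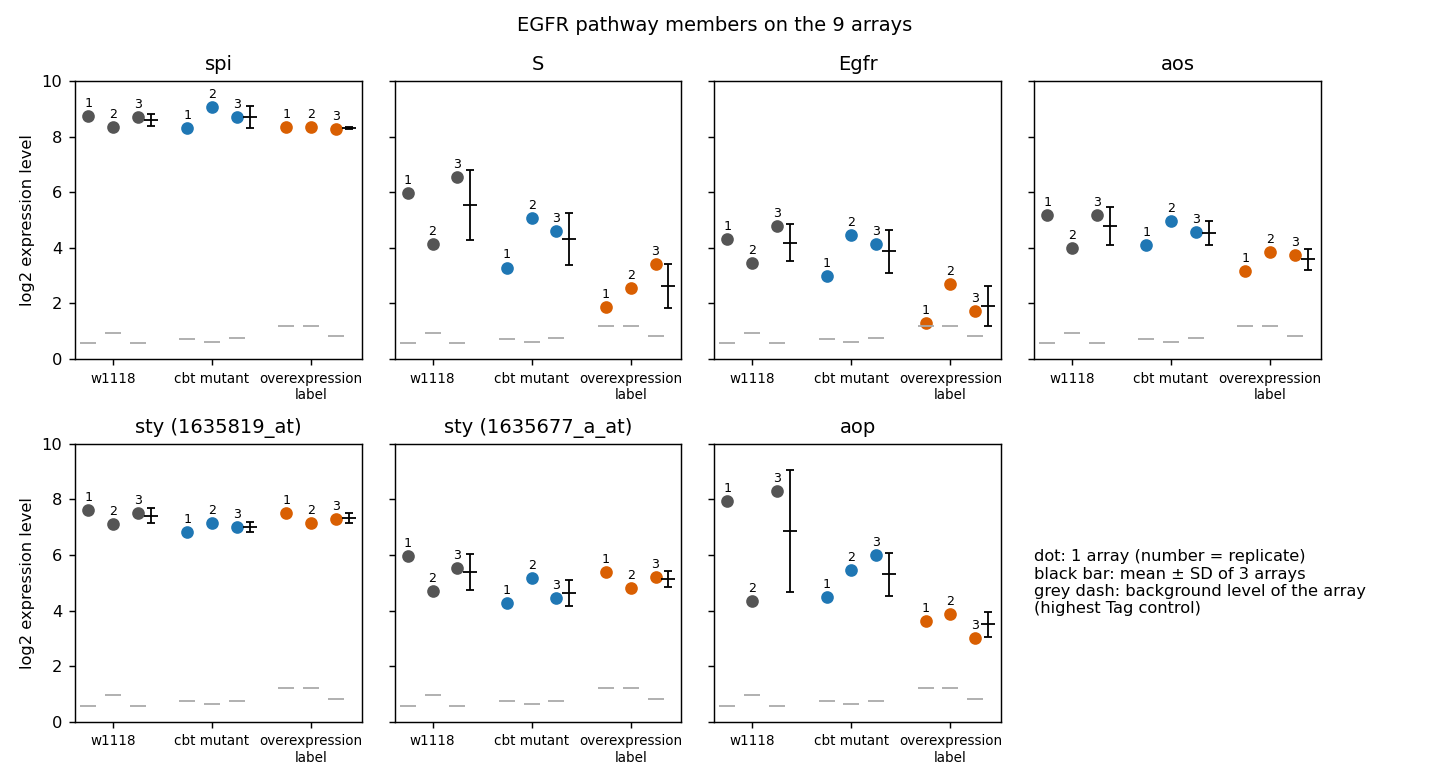
Log2 expression level (vertical axis) of the 7 member probe sets on each array, by group (horizontal axis), with the replicate number above each dot, the mean ± SD of 3 arrays as black bars and each array's background level as grey dashes. Egfr, aos and aop are lowest on the 3 arrays of the overexpression label, w1118 replicate 2 of aop lies at 4.35 against 7.95 and 8.31, and spi and sty on 1635819_at span less than 1 log2 unit. Heights of different probe sets are not comparable with each other.

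The first comparison asks which members differ between the cbt mutant and w1118. In the mutant, 0 of 7 member probe sets passed the threshold of an adjusted p of 0.05 (limma, Benjamini-Hochberg over all 18769 probe sets), against 0.133% of all probe sets. At an unadjusted p under 0.05, 0 were higher and 1 was lower, against 3.84% and 5.17% of all probe sets and 6.61% and 8.50% of those above background. That one was sty on 1635819_at, with a log2 difference of -0.42 (SE 0.18, limma adjusted p = 0.544). Its other probe set was at -0.76 (SE 0.36, limma adjusted p = 0.593). The log2 differences were -1.57 (SE 0.98) for aop, -1.23 (SE 0.72) for S, -0.31 (SE 0.52) for Egfr, -0.23 (SE 0.38) for aos and 0.097 (SE 0.20) for spi. The 95% intervals of all of these except sty on 1635819_at included 0, and that of aop ran from -3.82 to 0.69, so it spans both no difference and a large decrease. For 0 of the 7 were the arrays of the groups without overlap, against 9.79% of all probe sets. The median difference over the members was -0.42, beside 0.0097 over all probe sets.

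These values turned on the choice of control arrays. Against w1118 replicates 1 and 3 alone, 3 members were called lower, against 12.1% of all probe sets and 2146 of the 10194 above background. They were aop (-2.82, limma adjusted p = 0.00338) and both sty probe sets (-0.57, limma adjusted p = 0.0339, and -1.11, limma adjusted p = 0.0315). Against w1118 replicate 2 alone, with the spread taken from the other groups, 0 were called, against 0.202% of all probe sets. Egfr, aos, S and aop then pointed up, at 0.40, 0.56, 0.18 and 0.95, and the median over the members was 0.34. Genotype cannot be told apart from the split of the controls in the first of these fits.

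The second comparison asks which members differ between the overexpression label and w1118. Again 0 of 7 passed (limma), against 0.373% of all probe sets. Adjusted p values of the 4 that stood lowest were 0.0923 to 0.102 (limma). Many other probe sets had values as low, since by p Egfr ranked 497, S 746, aop 1714 and aos 2489 of 18769. With only the 2 groups fitted, Egfr, S and aos were each at a limma adjusted p of 0.197. In the overexpression label Egfr differed from w1118 by -2.27 on the log2 scale (SE 0.52, limma adjusted p = 0.0923), a level 4.83-fold lower. S differed by -2.93 (SE 0.72, limma adjusted p = 0.0939) and aop by -3.37 (SE 0.98, limma adjusted p = 0.0974). For aos the difference was -1.19 (SE 0.38, limma adjusted p = 0.102). These 4 had an unadjusted p under 0.05, all lower, beside 15.6% of all probe sets lower and 16.3% higher at that level, and 27.6% lower and 19.8% higher among those above background. Differences of spi (-0.28, SE 0.20) and sty (-0.092, SE 0.18, and -0.25, SE 0.36) were smaller, with limma adjusted p of 0.357, 0.726 and 0.631. The 95% interval of sty on 1635819_at ran from -0.50 to 0.31.

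The arrays of the overexpression label lay below all w1118 arrays for 5 of the 7 probe sets, namely Egfr, spi, aos, S and aop, against 12.0% of all probe sets. Of the probe sets above background, 20.4% lay so. In each of these 5 the nearest w1118 array was replicate 2. For aos it stood at 3.98 against 3.85 for the highest array of the overexpression label. Markers of several embryonic tissues were also lower. The mean log2 level of the 15 markers was 5.54, 4.15 and 5.44 on w1118 replicates 1, 2 and 3, 3.89, 4.67 and 4.32 on the mutant replicates and 3.73, 3.92 and 3.93 on those of the overexpression label. Of the 15, 13 pointed down against w1118 in the overexpression label, 11 with an unadjusted p under 0.05 and 9 without overlap, and 0 were called (limma). The share lower at that p was 15.6% of all probe sets and 27.6% of those above background. Of the 10194 above background, 5742 pointed down. In the mutant 13 of the markers pointed down as well, 5 with an unadjusted p under 0.05, and 0 were called (limma). There the shares were 5.17% and 8.50%, and 4924 of the 10194 pointed down. The neuronal gene elav, the hemocyte gene srp, the endodermal gene GATAe and the epidermal gene grh had lower means in both groups than in w1118. Against w1118 replicate 2 alone, the mutant means of elav (6.025 against 5.539) and GATAe (2.688 against 1.863) were higher. Those of srp (5.509 against 5.676) and grh (5.988 against 6.203) stayed lower. The means of the overexpression label lay below replicate 2 for each of these genes. The 2 not lower in the overexpression label were repo (5.43 against 5.32 in w1118) and Hml (1.003 against 1.001). In the mutant the 2 were btl (4.03 against 3.85) and Doc1 (5.38 against 5.08). The markers ovo and btl stand in the pathway lists too. The part of this shift in the members' values was not tested.

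The median over the members was -1.19, beside 0.091 over all probe sets and -0.18 over those above background. Set among all probe sets, 0.240% had a difference as low as that of aop, 0.565% as low as S, 2.06% as low as Egfr and 10.9% as low as aos. These shares also count probe sets near background, where a fall can hardly be read. They were not taken among the 10194 above background alone. The intervals are drawn in the plot of group differences.

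Against w1118 replicates 1 and 3 alone, 4 of the 7 were called lower, beside 21.0% of all probe sets and 3767 of the 10194 above background. They were aop (-4.62, limma adjusted p = 0.000177), S (-3.63, limma adjusted p = 0.00192), Egfr (-2.63, limma adjusted p = 0.00473) and aos (-1.58, limma adjusted p = 0.00307). Against w1118 replicate 2 alone 0 were called, against 0.202% of all probe sets. In that setting Egfr was at -1.55, S at -1.52, aop at -0.85 and aos at -0.40, while both sty probe sets pointed up, at 0.22 and 0.44. For Egfr, S, aop and aos all arrays of the overexpression label lay below all w1118 arrays, so no choice of control could turn their directions. Their sizes changed with the choice. The plot by choice of control arrays sets these values side by side.

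**Figure D2:**
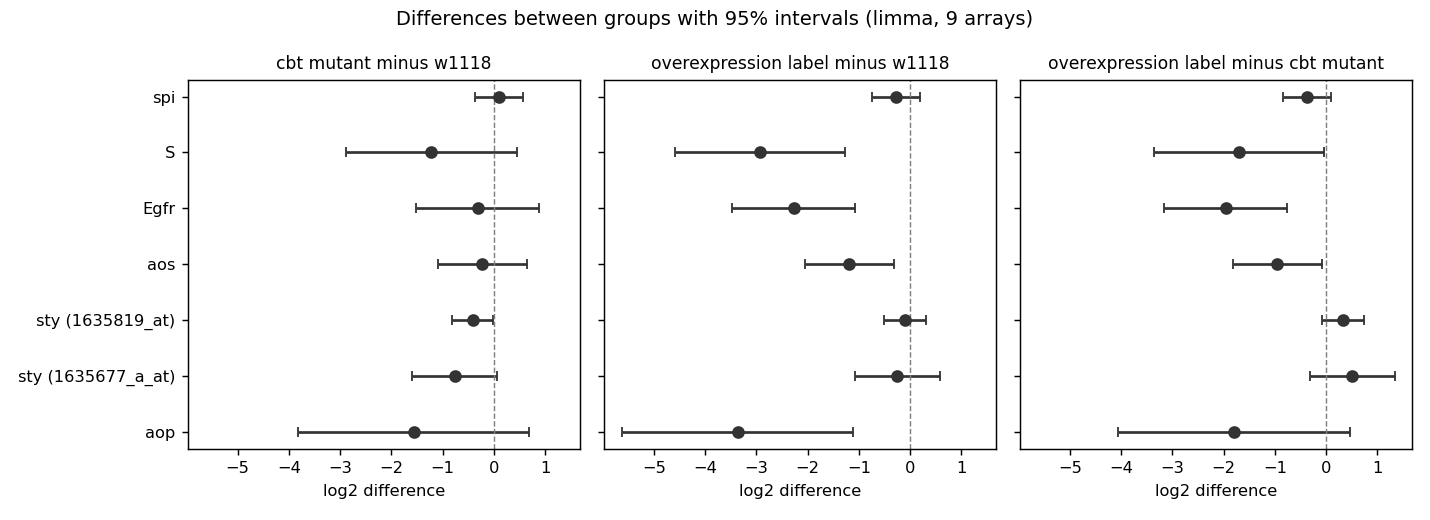
Log2 differences between groups (horizontal axis) of the 7 member probe sets (vertical axis) with 95% intervals from limma on 9 arrays, in 3 panels for the 3 comparisons. Intervals for Egfr, S, aop and aos lie below 0 for the overexpression label against w1118, as at -2.27 for Egfr, while those of spi and sty there include 0.

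**Figure D3:**
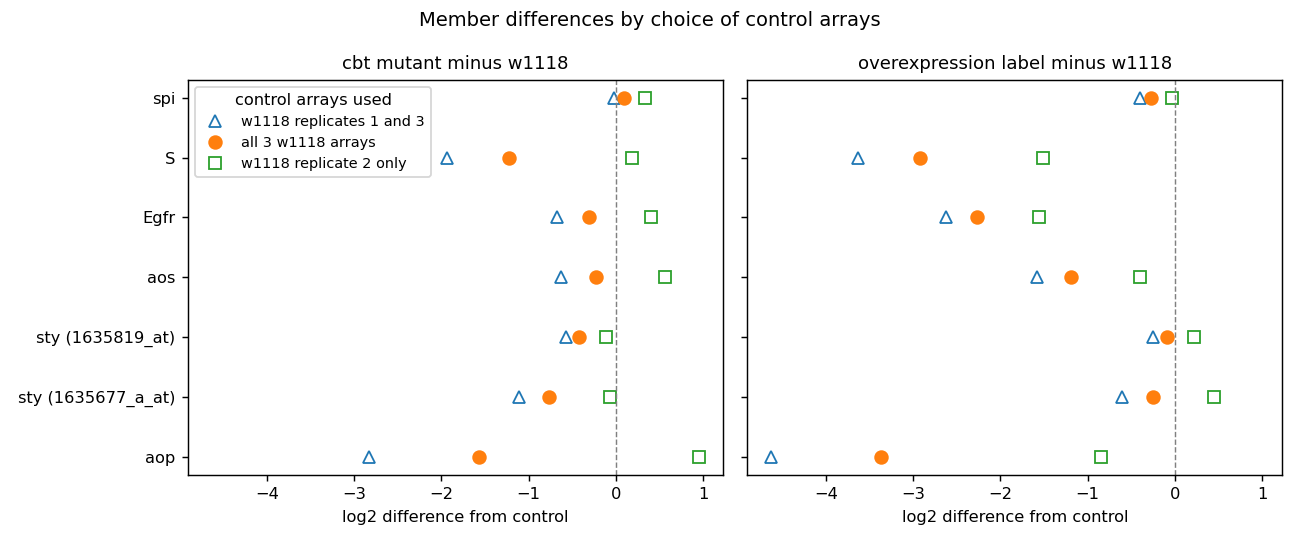
Log2 differences from control (horizontal axis) of each member probe set with w1118 replicates 1 and 3 as controls (triangles), all 3 w1118 arrays (dots) or replicate 2 alone (squares). For aop the mutant difference moves from -2.82 through -1.57 to 0.95, whereas for Egfr in the overexpression label it stays between -2.63 and -1.55.

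The third comparison sets the overexpression label against the mutant and uses w1118 only for the shared spread. With all 9 arrays 0 of 7 members passed (limma), against 0.256% of all probe sets. Egfr stood lower in the overexpression label by a log2 difference of -1.96 (SE 0.52, limma adjusted p = 0.143), S by -1.70 (SE 0.72, limma adjusted p = 0.259), aop by -1.80 (SE 0.98, limma adjusted p = 0.344) and aos by -0.96 (SE 0.38, limma adjusted p = 0.240). The value of spi was -0.37 (SE 0.20, limma adjusted p = 0.343). Both sty probe sets pointed the other way, at 0.33 (SE 0.18) and 0.51 (SE 0.36), with limma adjusted p of 0.342 and 0.444. For Egfr, aos and aop the overexpression label lay wholly below the mutant, 3 of 7 against 16.2% of all probe sets and 28.5% of those above background. An unadjusted p under 0.05 was reached by Egfr, aos and S, also lower, beside 9.17% of all probe sets and 16.6% of those above background. The median over the members was -0.96, beside 0.081 over all probe sets and -0.11 over those above background.

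The shared spread decided the calls in this comparison. With only the 6 arrays of the compared groups fitted, Egfr (limma adjusted p = 0.0437) and aop (limma adjusted p = 0.0362) fell, 2 of 7 against 7.54% of all probe sets lower. In that fit aos was at a limma adjusted p of 0.064 and S at 0.0902. Without w1118 replicate 2, Egfr (limma adjusted p = 0.0284), aop (0.023) and aos (0.0412) passed, 3 of 7 against 8.85% lower. Of the 10194 probe sets above background, 1652 were called lower in that fit. The actin control difference of 4.82 to 5.57 in the overexpression label and 3.16 to 3.49 in the mutant separates the same groups. The other 3' minus 5' controls did not run this way. That of eIF-4a was 2.53 to 2.84 in the overexpression label and 2.86 to 2.92 in the mutant. That of Act5C, another actin control, was 4.13 to 4.45 and 4.55 to 4.82, and those of the GAPDH controls overlapped. The part of these differences in the calls was not tested.

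The genes most like Egfr and aos over the arrays were found by a fixed rule among 7250 probe sets of other genes with a level and a spread above the median. For Egfr they were lin (r = 0.995), CG7083 (r = 0.981) and Fbw5 (r = 0.981), and for aos they were vih (r = 0.996), Acn (r = 0.994) and Pat1 (r = 0.994), each Pearson's r over 9 arrays. For example, vih stood at 7.58, 4.46 and 7.72 on w1118 replicates 1, 2 and 3, and at 2.41, 4.25 and 3.89 on those of the overexpression label. Among the members, Egfr correlated with aos at 0.947, with S at 0.900, with aop at 0.851 and with spi at 0.791, but with the sty probe sets at 0.0096 and 0.118. These values describe arrays that fall into separate clusters and share the split of the w1118 group.

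Other genes of the pathway were counted by list. Of 51 listed genes, 39 had probe sets, 45 in all. In the mutant 0 of 45 passed (limma), in the overexpression label against w1118 1 was higher and 0 were lower, and against the mutant 1 was higher and 0 were lower. The shares over all probe sets were 0.133% in the first comparison and, on the higher side, 0.240% and 0.117% in the others. The single call was sev, a receptor tyrosine kinase known from photoreceptor R7 of the eye. It stood at 0.97, 1.67 and 1.12 on w1118 replicates 1, 2 and 3, at 1.18, 1.22 and 1.07 on the mutant replicates and at 4.23, 3.36 and 3.58 on those of the overexpression label, with no overlap. It rose by 2.46 against w1118 (SE 0.26, limma adjusted p = 0.0107) and by 2.56 against the mutant (SE 0.26, limma adjusted p = 0.00765). Without overexpression replicate 3 or without w1118 replicate 3 the call against w1118 was lost (limma adjusted p = 0.0691 and 0.0608), as it was with only the 2 groups fitted (limma adjusted p = 0.0861), and without mutant replicate 2 or without mutant replicate 3 the call against the mutant was lost (limma adjusted p = 0.0504 and 0.0604). The difference from w1118 replicate 2 alone was 2.05 (limma adjusted p = 0.0994).

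The Ras-MAPK cascade, with 10 probe sets, had a median of -0.53 in the mutant and -1.26 in the overexpression label against w1118. In the latter, 6 had an unadjusted p under 0.05 on the lower side and 1 on the higher side, beside 15.6% and 16.3% of all probe sets and 27.6% and 19.8% of those above background. That one was Dsor1, the MAP kinase kinase, at 1.53 (SE 0.42, limma adjusted p = 0.0963). In the mutant the smallest p of this list was that of drk, the adaptor that joins the receptor to Sos, at -0.78 (SE 0.26, limma adjusted p = 0.454). Against w1118 replicate 2 alone the medians of this list were 0.038 in the mutant and -0.12 in the overexpression label. The feedback and negative regulators, with 10 probe sets, had medians of -0.58 and -1.09, which were 0.089 and -0.22 against w1118 replicate 2 alone. The phosphatase PTP-ER, which acts on MAP kinase, was at -1.37 in the overexpression label (SE 0.32, limma adjusted p = 0.0931). The ubiquitin ligase gene Cbl was at -0.93 against the mutant on 1626708_at (SE 0.28, limma adjusted p = 0.164). On 1635580_at it was at -0.25 (SE 0.49, limma adjusted p = 0.785), where 1 of 3 arrays of the overexpression label was above background.

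The embryonic target genes, with 5 probe sets for oc, ind, ovo and mirr, all pointed down in both comparisons with w1118, with medians of -1.01 and -1.37. Of these, 2 in the mutant and 4 in the overexpression label had an unadjusted p under 0.05, beside 5.17% and 15.6% of all probe sets on the lower side and 8.50% and 27.6% of those above background. Against w1118 replicate 2 alone the medians were 0.53 and 0.035. Of the other ETS genes, with 5 probe sets, Ets97D and Ets65A were above background on all arrays, while Ets21C and Ets96B were above it on 0 arrays and Ets98B on 1. The log2 differences in the mutant, in the overexpression label and between them were 0.18, 0.76 and 0.58 for Ets97D and -0.31, -0.13 and 0.18 for Ets65A. Ets21C, the one with the smallest p in the last comparison, is given no fold. The same holds for cic on 1625451_at. On 1635909_at, above background on all arrays, cic in the overexpression label was at -0.48 against the mutant (SE 0.55, limma adjusted p = 0.638). Against w1118 it was at -1.95 there (SE 0.55, limma adjusted p = 0.0969), and at -0.44 against w1118 replicate 2 alone.

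Other receptor tyrosine kinases and FGF genes, with 12 probe sets, had medians of -0.61 in the mutant, -0.68 in the overexpression label and -0.013 between them. The FGF gene bnl, the ligand of the tracheal receptor, was at -1.49 in the mutant on 1627135_at (SE 0.34, limma adjusted p = 0.275). There 1 of 3 mutant arrays was above background, so the size on that probe set rests on levels near background. On 1637225_at, above background on 3 of 3 mutant arrays, bnl was also at -1.49 (SE 0.50, limma adjusted p = 0.454). On 1634109_a_at it was at -0.89 (SE 0.41, limma adjusted p = 0.591). The FGF gene pyr was at -1.38 (SE 0.32, limma adjusted p = 0.275) and the insulin receptor gene InR at -1.97 (SE 0.61, limma adjusted p = 0.429). Measured from w1118 replicate 2 alone, pyr in the mutant was at -0.70 and InR at -0.31. The bnl probe sets, in the order given, were then at -0.98, -0.20 and 0.21. In the overexpression label bnl was at -1.91 on 1637225_at (SE 0.50, limma adjusted p = 0.0963), where 2 of 3 arrays of that label were above background. The list of other ligands and ligand processing, with 1 probe set each for the ligands Krn and grk and for cni, known for export from the endoplasmic reticulum, had 0 calls and medians of -0.097, -0.36 and -0.27 in the 3 comparisons. These medians are the values of grk. In the same order cni was at 0.80, 1.25 and 0.44, and Krn at -0.68, -1.15 and -0.47. From w1118 replicate 2 alone, cni was at -0.52 in the mutant and -0.076 in the overexpression label, Krn at 0.49 and 0.021, and grk at 0.26 and -0.0083. Against w1118 replicates 1 and 3 alone, 21 of the 45 pathway probe sets were called lower and 4 higher in the mutant, beside 12.1% and 9.11% of all probe sets. In the overexpression label 26 were called lower and 6 higher, beside 21.0% and 19.6%. Of the 10194 probe sets above background, 2146 were called lower and 1682 higher in the mutant, and 3767 and 2651 in the overexpression label. The plot of pathway lists shows every probe set.

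**Figure D4:**
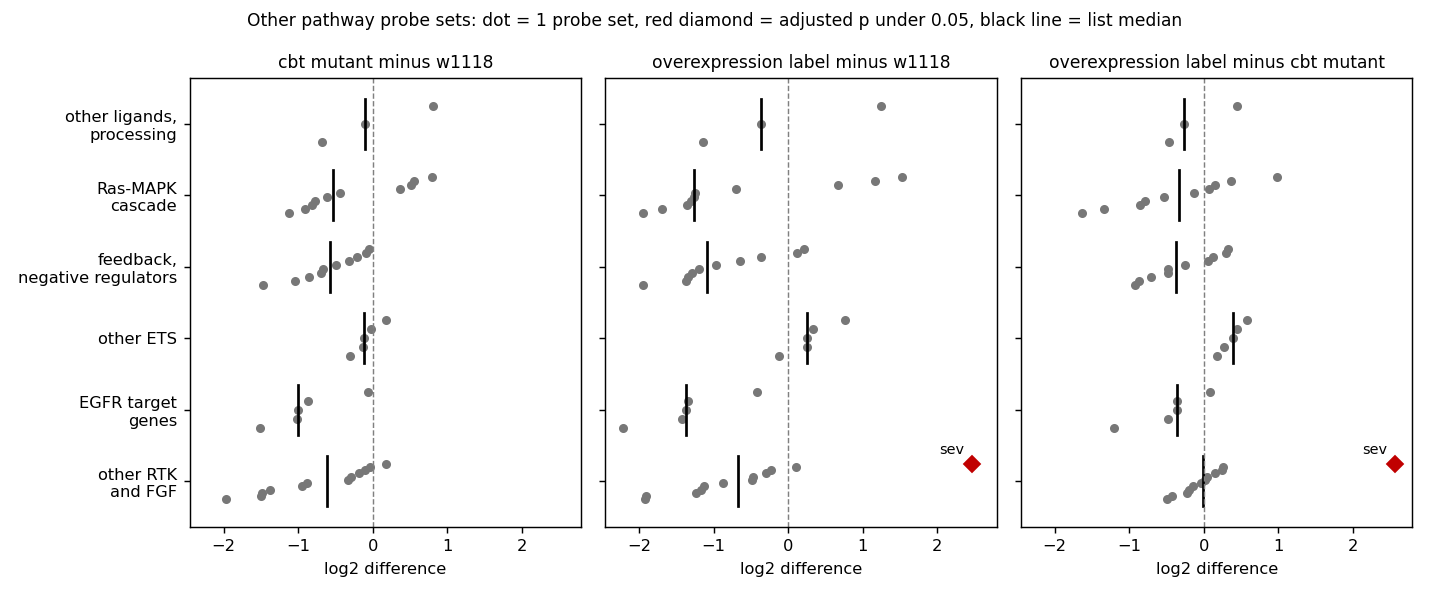
Log2 differences (horizontal axis) of the 45 probe sets of other pathway genes by list (vertical axis) in the 3 comparisons, with list medians as black lines and calls at an adjusted p under 0.05 as red diamonds. Only sev is called, at 2.46 and 2.56. The Ras-MAPK median lies at -1.26 for the overexpression label against all 3 w1118 arrays and at -0.33 against the mutant.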

How the data were processed

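The authors deposited log2 values for each probe set on each array. Per the submitters' processing notes, the tools were RMA, affy and limma, with no versions. Chip definition, build and filters are not stated. After 183 control probe sets were left out, 18769 were tested. Names came from the platform annotation (1 symbol for 13647 probe sets, several for 402, none for 4720), updated by gene ID for 13544 with the RefSeq table of Release 6 plus ISO1 MT. No coordinates or sequences are printed. One limma 3.58.1 model in R 4.3.3 with a mean per group was fitted to 9 arrays, with Benjamini-Hochberg adjustment over all probe sets at 0.05. The procedure was tested on simulated data. Members and lists were chosen with earlier results of these data known. Named were all member probe sets, cbt, up to 4 other pathway probe sets of smallest p per comparison, and the 3 genes most like Egfr and aos. Also named were the other probe sets of bnl, Cbl and cic, and the list of other ligands and ligand processing. Alternatives were scaling, a filter on dim probe sets, 1 probe set per gene, array weights, a variance trend, the choice of arrays and a replicate block. The number of arrays limits the precision.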

Additional observations from a re-analysis of the deposited data

How the results depend on the processing

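The 7 member probe sets were refitted in 3 comparisons under 19 alternatives. Calls at an adjusted p under 0.05 over all probe sets numbered 25, 70 and 48 for mutant against w1118, overexpression label against w1118 and overexpression label against mutant. With array weights they were 5329, 8846 and 3802, with w1118 replicate 2 as the only control 38, 38 and 2595, with only the 2 groups fitted 3, 18 and 2595, and with the replicate block 11, 17 and 30. Quantile normalization gave 124 for the overexpression label against w1118, and 1 probe set per gene 28 for it against the mutant. Against w1118, the overexpression label had 45 higher and 25 lower, against 51 and 16 with cyclic loess and 101 and 23 with quantile normalization. Against the mutant it had 22 and 26, against 35 and 20 with quantile normalization. Leaving out 1 array gave 12 to 3987, 11 to 7625 and 24 to 2999, each highest without w1118 replicate 2.

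Member calls, 0 in each comparison, became 4, 4 and 4 with array weights (beside 28.4%, 47.1% and 20.3% of all probe sets), and 2 for the overexpression label against the mutant with only the 2 groups fitted or with w1118 replicate 2 as the only control. Leaving out 1 array gave 0 to 3, 0 to 4 and 0 to 3. The other pathway calls, 0, 1 and 1, became 29, 34 and 11 with array weights. The last 2 became 0 and 0 with the replicate block (limma adjusted p of sev 0.0907 and 0.0609), 0 and 3 with only the 2 groups fitted, and 0 and 3 with w1118 replicate 2 as the only control. Leaving out 1 array gave 0 to 25, 0 to 32 and 0 to 7. The member medians were 0.34 and -0.40 in the first 2 comparisons with w1118 replicate 2 as the only control, and ran from -0.67 to -0.31, -1.58 to -0.98 and -1.18 to -0.75 when 1 array was left out.

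Directions of single members turned for spi in the mutant with cyclic loess (-0.29), without mutant replicate 2 (-0.093) and without w1118 replicate 2 (-0.024), within a range of -0.093 to 0.29 when 1 array was left out. They turned for Egfr in the mutant without mutant replicate 1 (0.13, range -0.67 to 0.13), and for sty in the overexpression label without w1118 replicate 1 (0.015 and 0.034, ranges -0.25 to 0.015 and -0.60 to 0.034). With w1118 replicate 2 as the only control they turned for Egfr (0.40), aos (0.56), S (0.18) and aop (0.95) in the mutant and for sty (0.22 and 0.44) in the overexpression label. The cause was not tested, beyond fewer or other arrays entering the fit. Deviations from the group means of same-numbered arrays correlated at -0.374 to 0.26, over 0.1 in 2 of 9 pairs. Those of arrays with different numbers correlated at -0.259 to 0.403. With 3 arrays per group and a split w1118 group, these values cannot settle whether the replicate numbers of the labels pair the arrays. The replicate block called 0 members in each comparison. Levels near background, as for Egfr in the overexpression label, limit how low a level can be read.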
